A study of Mus musculus with 18 samples.

Results

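Sertoli cells are the somatic nurse cells of the seminiferous tubule. They hold the germ cells, seal the blood-testis barrier with tight junctions, answer to follicle-stimulating hormone and secrete proteins into the tubule. Spermatocytes lie against them, so Sertoli cell RNA in sorted spermatocytes is used as a sign of somatic material in the sort. The 8 genes described here are Wt1, Cldn11, Inha, Amhr2, Aard, Ctsl, Clu and Trf, taken by symbol from the 15780 genes that the arrays name by 1 symbol, with 1 probe set for each gene. All 8 were on the array and all 8 were tested in every comparison. Several are not confined to Sertoli cells: Inha and Amhr2 are also known from Leydig cells, and Ctsl, Clu and Trf from many tissues.

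The series measured RNA on 18 mouse arrays, and its title asks about the meiotic effects of more unsynapsed autosomal chromatin. Flow-sorted spermatocytes of the pre-mid-pachytene stage came from t12+/+T43 (t12/T43 in what follows, n = 3), Ttf+/+T43H (Ttf/T43H, n = 3) and fertile C57BL/10J (n = 2) males. Fertile C57BL/10J males also gave sorted cells of the mid-late-pachytene stage (n = 2). All sorted cells came from males aged 2 months. Whole testes, without the outer coat, came from 15-day-old t12/T43 (n = 3), Ttf/T43H (n = 3) and C57BL/6J (n = 2) males. Both carrier lines are on a C57BL/10J background and carry a T43 translocation chromosome opposite a t12 or a Ttf chromosome 17, where T43H is known as a reciprocal exchange between chromosomes 16 and 17. The sorted controls were therefore of the carriers' background strain, and the testis controls were of another strain, so in testes genotype and strain cannot be told apart. The design text calls the replicates biological. Values are the authors' log2 GCRMA values, on which a difference of 1 is a doubling, and values under 4 carry little signal over background. Levels are compared between arrays for 1 gene at a time, since different probe sets do not share a scale.

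Sequence before the annotated gene start is shown for 3 members that stood differently in the sorts. Cldn11 was the member lowest in the carriers' sorted cells relative to their testes, and Ctsl the nearest to its testis level. Amhr2, a hormone receptor gene, lay between them. The windows are the 250 bases before the annotated gene start in RefSeq, build GRCm38.p6, written 5′ to 3′ along the gene. They lie at chr3:31149670-31149919 on the plus strand for Cldn11, chr13:64370521-64370770 on the minus strand for Ctsl and chr15:102445117-102445366 on the plus strand for Amhr2. RefSeq windows were matched for 4 of the 8 members, the fourth being Inha. Capitals mark a match to 1 of 4 searched motifs, on either strand.
Cldn11: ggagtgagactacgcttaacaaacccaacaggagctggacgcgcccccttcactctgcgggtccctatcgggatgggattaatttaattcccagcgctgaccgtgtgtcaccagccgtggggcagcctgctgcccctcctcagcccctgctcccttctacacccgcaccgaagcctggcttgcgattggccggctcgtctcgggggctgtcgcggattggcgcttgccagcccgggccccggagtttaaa
Ctsl: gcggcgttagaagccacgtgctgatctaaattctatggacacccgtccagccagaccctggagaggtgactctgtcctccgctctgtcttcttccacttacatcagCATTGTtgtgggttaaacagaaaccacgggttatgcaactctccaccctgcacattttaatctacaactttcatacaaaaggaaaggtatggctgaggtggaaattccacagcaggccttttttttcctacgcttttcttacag
Amhr2: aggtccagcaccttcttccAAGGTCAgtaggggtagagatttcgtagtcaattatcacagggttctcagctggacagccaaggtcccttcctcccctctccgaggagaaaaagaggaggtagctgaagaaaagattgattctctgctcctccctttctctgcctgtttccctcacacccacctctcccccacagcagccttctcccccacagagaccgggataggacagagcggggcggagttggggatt
The letters searched were AAGGTCA, which NR5A1 is known to bind, AGATAA for GATA factors, ACAATG for SOX factors and TGACGTCA for cAMP response factors. No searched motif overlapped another in these windows. Amhr2 held AAGGTCA, with its first letter 231 bases before the start, and 4.05% of 27025 such windows hold it. Ctsl held the SOX letters on the other strand, as CATTGT, 144 bases before the start, and 11% of windows hold that motif. Neither the Cldn11 nor the Inha window held any of the 4. Whether these windows hold the promoters in use was not tested, so a motif's presence or absence says nothing about a gene's regulation. AGATAA and TGACGTCA occur in 10.3% and 1.62% of windows.

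Among the 10 sorted arrays, correlations between replicates across genes ran between 0.963 and 0.996, against 0.998 to 0.999 in testes. Ttf/T43H replicate 2 (0.963 and 0.974 with its group) and t12/T43 replicate 2 (0.975 and 0.980) correlated least, while the mean X level lay apart in Ttf/T43H replicate 2 (0.05) and t12/T43 replicate 3 (0.13), against -1.09 to -0.52 on the other carrier arrays. Each count of called members below was therefore also made without these arrays. Markers of the labelled cell type were high in the sorts, with the mean of 8 pachytene markers between 11.65 and 12.62 on every sorted array. The 8 testes, labelled as 15-day tissue, held 19 of the 25 other Sertoli markers on the array at 4 or more, no spermatid marker reached 4 there, and Amh, the anti-Müllerian hormone gene, read between 1.58 and 1.68 on all of them.

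In whole testes the members were high and even. Wt1, a zinc finger transcription factor that keeps Sertoli cell identity, read 11.22, 11.19 and 11.24 in t12/T43 testes, 11.04, 11.06 and 11.12 in Ttf/T43H testes and 10.97 and 10.99 in C57BL/6J testes. Cldn11, the claudin of the blood-testis barrier, read 12.74, 12.76 and 12.71 in t12/T43 testes, 12.58, 12.53 and 12.69 in Ttf/T43H testes and 12.56 and 12.52 in C57BL/6J testes. The t12/T43 values of both genes were above every other testis, by small steps. Amhr2, Aard, Ctsl and Clu each spanned less than the width of a doubling over all 8 testes, with levels of 13.38 to 13.62, 14.71 to 14.87, 14.61 to 14.82 and 15.17 to 15.25. Inha, the alpha subunit of inhibin, which restrains follicle-stimulating hormone, read between 12.47 and 13.28.

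Trf was the exception in testes. This gene encodes transferrin, the iron carrier that Sertoli cells secrete to germ cells. It read 5.79, 5.68 and 6.21 in t12/T43 testes, 5.92, 6.01 and 6.39 in Ttf/T43H testes and 7.50 and 7.37 in C57BL/6J testes. Every carrier testis lay below both C57BL/6J testes, and the 2 carrier groups overlapped. By limma, Trf fell by 1.54 ± 0.19 in t12/T43 against C57BL/6J (SE, 2.91-fold, adjusted p = 0.0024) and fell by 1.33 ± 0.19 in Ttf/T43H (2.52-fold, adjusted p = 0.0079). These 2 comparisons share the C57BL/6J testes. Wt1 rose by 0.24 ± 0.05 in t12/T43 (1.18-fold, adjusted p = 0.013), and its change in Ttf/T43H was 0.09 ± 0.05.

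Against C57BL/6J testes, 1 of 8 members rose and 1 fell in t12/T43, where 10.5% and 11.3% of all genes rose and fell. In Ttf/T43H 1 member fell and none rose, where 4.70% and 3.86% of all genes did. With either C57BL/6J testis left out, the Trf change in Ttf/T43H (-1.27 and -1.39) and the Wt1 change in t12/T43 (0.22 and 0.25) no longer passed. Cldn11 had a change of 0.20 ± 0.06 in t12/T43 (adjusted p = 0.054), and it passed with quantile normalization, with arrays centred on their medians and with a mean-variance trend. Between t12/T43 and Ttf/T43H testes limma called 0 of 8 members, where 4.99% of all genes were called. The members' changes lay between -0.21 and 0.26. An unadjusted p under 0.05 was found for 2 members, Wt1 and Cldn11, and for 2364 of the 9134 genes tested.

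In the sorted pre-mid-pachytene cells the same genes were still measured well above background, apart from Trf. The nuclear and junction members came first. Wt1 read 8.32, 8.14 and 9.41 on the t12/T43 arrays, 8.32, 7.11 and 8.17 on the Ttf/T43H arrays and 5.37 and 6.10 on the C57BL/10J arrays. Cldn11 read 8.94, 8.19 and 10.26 in t12/T43 sorts, 8.74, 8.38 and 8.46 in Ttf/T43H sorts and 6.86 and 6.59 in control sorts. For both genes all 6 carrier arrays stood above both controls, and the 2 carrier groups overlapped.

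Of the hormone signalling pair, Inha read 11.12, 10.79 and 12.12 in t12/T43 sorts, 10.68, 9.63 and 10.45 in Ttf/T43H sorts and 9.48 and 9.62 in C57BL/10J sorts. Its lowest Ttf/T43H array was level with the higher control, and every t12/T43 array stood above every Ttf/T43H array. Amhr2, the receptor of anti-Müllerian hormone, read 12.71, 11.61 and 13.47 in t12/T43 sorts, 12.81, 12.36 and 12.36 in Ttf/T43H sorts and 11.48 and 11.45 in control sorts. The lowest t12/T43 array stood just above the controls, whereas the Ttf/T43H arrays were close together.

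Aard, an alanine- and arginine-rich protein gene of Sertoli cells about which little is known, read 13.47, 12.59 and 14.47 in t12/T43 sorts, 12.96, 12.68 and 12.94 in Ttf/T43H sorts and 11.25 and 11.52 in C57BL/10J sorts. All carrier arrays lay above the controls by more than 1. The secreted and lysosomal members differed from this. Clu, the gene of the secreted chaperone clusterin, read 14.28, 13.36 and 15.08 in t12/T43 sorts, 14.18, 13.78 and 13.84 in Ttf/T43H sorts and 13.46 and 13.35 in control sorts. Ctsl, the gene of the lysosomal protease cathepsin L, read 14.47, 13.97 and 15.06 in t12/T43 sorts, 14.38, 13.67 and 14.34 in Ttf/T43H sorts and 14.32 and 14.46 in control sorts. The lowest t12/T43 array lay between the Clu controls. Both Ctsl controls lay inside the t12/T43 range, and 1 of them lay above every Ttf/T43H array. Trf read between 2.49 and 4.85 over the 8 arrays, with only 1 t12/T43 and 1 C57BL/10J array at 4 or more.

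**Figure D1:**
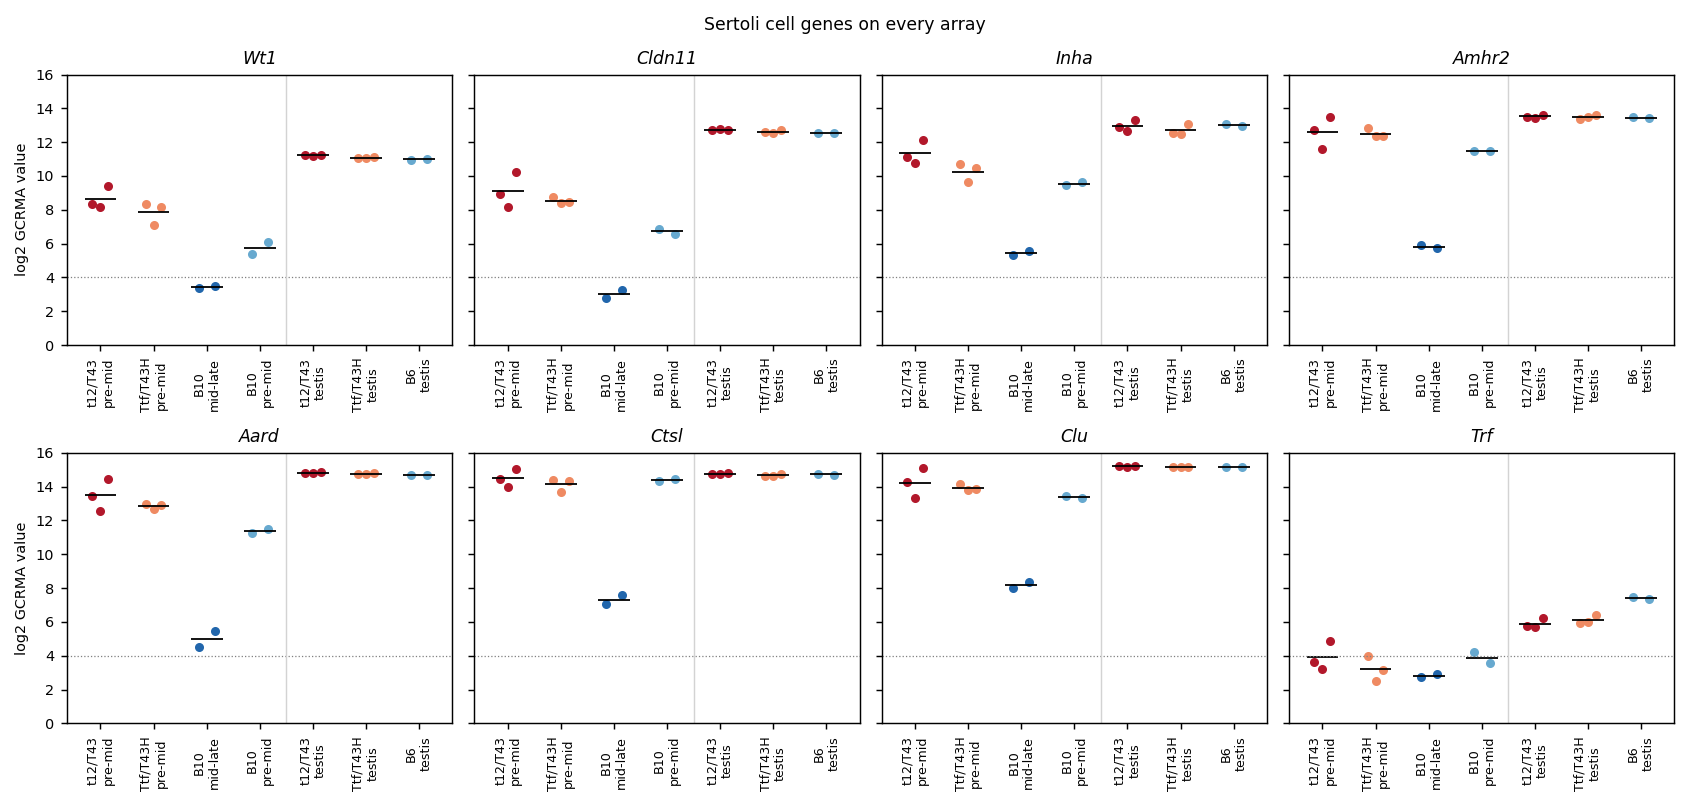
Log2 GCRMA value (vertical axis) of each Sertoli cell gene on every array, 1 panel for each gene; points are arrays, short lines are group means, and the dotted line marks 4, below which signal is close to background. The vertical line parts the sorted cells on the left from the testes on the right, with B10 for C57BL/10J and B6 for C57BL/6J. The mid-late-pachytene arrays are the lowest group for all 8 genes, and t12/T43 replicate 3 is the highest pre-mid-pachytene array for all 8.

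The array t12/T43 replicate 3 was the highest of the 8 pre-mid-pachytene arrays for all 8 members. The lowest was C57BL/10J replicate 1 for 3 members, C57BL/10J replicate 2 for 3, and Ttf/T43H replicate 2 for Ctsl and Trf. With each member centred on its mean over the 10 sorted arrays, the mean of the 8 was 1.52, 0.88 and 2.49 on the t12/T43 arrays, 1.40, 0.66 and 1.11 on the Ttf/T43H arrays and 0.20 and 0.23 on the C57BL/10J pre-mid-pachytene arrays. On this scale the testes lay between 3.14 and 3.42.

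Against C57BL/10J, 4 of the 8 members rose in t12/T43 pre-mid-pachytene cells, where 3.24% of all genes tested rose. Wt1 rose by 2.89 ± 0.48 (SE, 7.39-fold, adjusted p = 0.0084, limma, n = 3 and 2). Cldn11 rose by 2.41 ± 0.52 (5.31-fold, adjusted p = 0.022), Aard by 2.13 ± 0.51 (4.37-fold, adjusted p = 0.035) and Inha by 1.79 ± 0.43 (3.46-fold, adjusted p = 0.037). Amhr2 had a change of 1.13 ± 0.47 (adjusted p = 0.193) and Clu one of 0.84 ± 0.44 (adjusted p = 0.316), and neither passed. Ctsl and Trf had changes of 0.11 ± 0.37 and 0.01 ± 0.54. For 5 of the 8, Wt1, Cldn11, Inha, Aard and Amhr2, the t12/T43 arrays all lay above the controls, as was so for 26.0% of all genes. The members' median change was 1.46, beside 0.06 over all genes.

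These calls depended on the setting and on single arrays. Wt1 alone passed with no filter on low values and in a fit of only the groups compared. Without t12/T43 replicate 3, the highest array, Wt1 and Cldn11 passed, and Inha (1.40) and Aard (1.65) did not. Wt1 alone passed without t12/T43 replicate 1 or without C57BL/10J replicate 2, and 0 members did without C57BL/10J replicate 1, where the change of Wt1 was 2.52. Without t12/T43 replicate 2, the 6 members Wt1, Cldn11, Inha, Amhr2, Aard and Clu passed. Without both arrays whose X level lay apart, Wt1, Cldn11 and Inha passed.

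In Ttf/T43H pre-mid-pachytene cells limma called 0 of 8 members against the same C57BL/10J arrays, where 2.06% of all genes were called. An unadjusted p under 0.05 was found for 3 members, Wt1, Cldn11 and Aard, and for 1731 of the 9666 genes tested. Wt1 had a change of 2.13 ± 0.48 (4.38-fold, adjusted p = 0.062), Cldn11 one of 1.80 ± 0.52 (3.49-fold, adjusted p = 0.114) and Aard one of 1.48 ± 0.51 (adjusted p = 0.179). Amhr2, Inha and Clu had changes of 1.05, 0.70 and 0.53. Those of Ctsl and Trf were -0.26 and -0.69. For 6 members, all but Ctsl and Trf, the 3 Ttf/T43H arrays lay above both controls, where 20.4% of all genes did. Here too 1 array weighed on the calls: without Ttf/T43H replicate 2 the change of Wt1 was 2.51 and passed. Without Ttf/T43H replicate 2 and t12/T43 replicate 3, Wt1, Cldn11 and Inha passed, and without Ttf/T43H replicate 2 and t12/T43 replicate 2, Wt1, Cldn11, Amhr2 and Aard did.

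Set directly against Ttf/T43H, t12/T43 sorted cells had 0 of 8 members called by limma, where 0.755% of all genes were called. An unadjusted p under 0.05 was found for 1 member and for 987 of the 9666 genes tested. All 8 changes were positive, between 0.09 for Amhr2 and 1.09 for Inha. Inha (1.09 ± 0.39, adjusted p = 0.347) was the 1 member whose ranges did not overlap, with t12/T43 above, as for 5.68% of all genes. Without Ttf/T43H replicate 2 and t12/T43 replicate 3, the change of Inha was 0.39, and those of Amhr2, Clu, Ctsl, Cldn11 and Wt1 turned to between -0.42 and -0.02. A difference between the carriers in these genes was thus not detectable with these arrays.

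**Figure D2:**
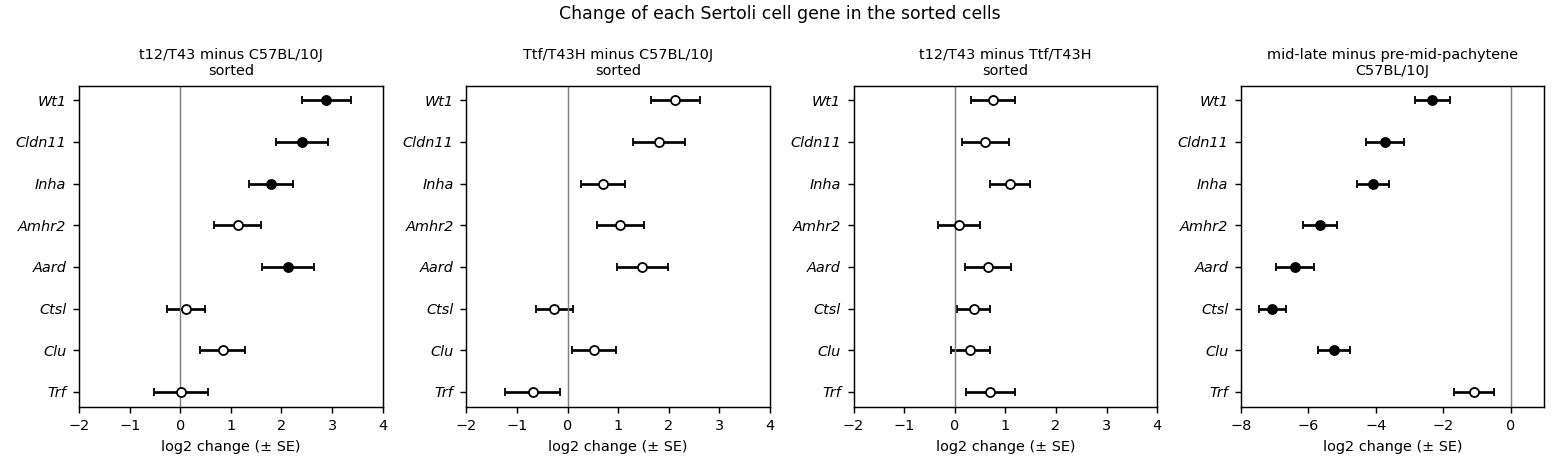
Log2 change (horizontal axis) with its SE for each Sertoli cell gene in the 4 comparisons of sorted cells; filled points passed an adjusted p under 0.05, open points did not. The panels from the left show 4, 0, 0 and 7 called genes, and the last panel has its own, wider axis.

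The 2 stages were compared within C57BL/10J. Of the 8 members, 7 fell in mid-late-pachytene cells against pre-mid-pachytene cells, where 30.3% of all genes fell. Ctsl read 7.05 and 7.60 on the mid-late arrays, against 14.32 and 14.46 on the pre-mid arrays, and fell by 7.06 ± 0.40 (133.7-fold, adjusted p = 2.3e-06, n = 2 and 2). Aard read 4.50 and 5.47 on the mid-late arrays and fell by 6.40 ± 0.56 (84.3-fold). Amhr2, at 5.91 and 5.72 in mid-late cells, fell by 5.65 ± 0.51 (50.3-fold), and Clu, at 7.99 and 8.33, fell by 5.24 ± 0.48 (37.9-fold).

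Inha read 5.34 and 5.57 in mid-late cells and fell by 4.10 ± 0.47 (17.1-fold). Cldn11 read 2.77 and 3.23 and fell by 3.72 ± 0.56, and Wt1 read 3.36 and 3.47 and fell by 2.32 ± 0.53 (adjusted p = 0.0052). Wt1 and Cldn11 were thus under 4 on both mid-late arrays, as was Trf at 2.74 and 2.90, so their changes are measured against background and no fold is given. Trf had a change of -1.07 ± 0.59 (adjusted p = 0.156). The ranges were apart for all 8 members, with mid-late below, as for 46.4% of all genes. The 7 calls held whichever of the 4 arrays was left out. The members' median change was -4.67, beside -0.11 over all genes. In bulk RNA of sorted cells, fewer Sertoli cells or fragments and less RNA of these genes in each cannot be told apart, here and in every comparison. Nor can RNA of these genes from other cells, since several members are not confined to Sertoli cells.

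Each carrier's sorted cells were also compared with testes of its own line. The sorted cells came from adults and the testes from 15-day-old males, and the extraction kits differed, so age, material and kit cannot be told apart in this contrast. The sources used here do not say whether all arrays were normalized together, and the contrast takes them to share 1 scale. The 5′ probes of Gapdh read lower than the 3′ probes by 3.26 to 3.98 on the 6 carrier sorted arrays, while on the carrier testes this gap, which reflects RNA integrity and labelling, lay between -0.07 and 0.14. Its part in the differences was not tested.

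In t12/T43, 7 of 8 members were called lower in sorted cells than in testes, where 31.7% of all genes were, and in Ttf/T43H 7 of 8 were, where 31.0% were. The distance was widest for Cldn11, which fell by 3.61 ± 0.36 in t12/T43 and by 4.07 ± 0.36 in Ttf/T43H. Wt1 fell by 2.59 ± 0.33 and 3.21 ± 0.33, and Inha by 1.61 ± 0.33 and 2.44 ± 0.33, in the same order of lines. Aard fell by 1.32 ± 0.35 in t12/T43 and 1.90 ± 0.35 in Ttf/T43H, Clu by 0.98 ± 0.30 and 1.24 ± 0.30, and Amhr2 by 0.92 ± 0.32 and 0.97 ± 0.32. Trf fell by 1.99 ± 0.40 and 2.90 ± 0.40, to levels mostly under 4.

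Ctsl alone did not pass in either line, with changes of -0.26 ± 0.25 in t12/T43 (adjusted p = 0.358) and -0.53 ± 0.25 in Ttf/T43H (adjusted p = 0.071). The Ctsl values of t12/T43 sorted cells overlapped those of t12/T43 testes. In a fit of only the groups compared, Amhr2 and Clu were not called in t12/T43. Single t12/T43 arrays also weighed on these calls. Without t12/T43 sorted replicate 2, Amhr2 (-0.43) did not pass and the change of Ctsl was 0.0061, while without t12/T43 sorted replicate 3 Ctsl (-0.54) passed too. Amhr2 (-0.87) also did not pass without t12/T43 testis replicate 3. All 8 members' ranges were lower and apart in Ttf/T43H, as for 31.8% of all genes, and 6 of 8 in t12/T43, as for 34.3%. Scaling mattered here: with each array centred on its median, the median change of all genes moved to 0.92 in t12/T43 and 0.72 in Ttf/T43H, against 0.25 and 0.23 as deposited. Amhr2, Aard and Clu then no longer passed in t12/T43, nor did Amhr2 in Ttf/T43H, and Ctsl in t12/T43 stood at 0.40. With quantile normalization all 8 members fell in both lines.

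Whether the sorted-to-testis step differed between the lines was tested in 1 fit of all 18 arrays. Limma called 0 of 8 members, where 0.734% of all genes were called. At an unadjusted p under 0.05 there were 0 members, beside 812 of the 10623 genes tested. Inha had the smallest p, with a difference of 0.83 ± 0.47 (adjusted p = 0.758). For the C57BL/10J sorts, testes of the same strain were not analysed here. Set beside C57BL/6J testes with no test, the differences lay between -9.73 (Aard) and -4.62 (Trf) for mid-late cells and between -5.82 (Cldn11) and -0.33 (Ctsl) for pre-mid cells.

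**Figure D3:**
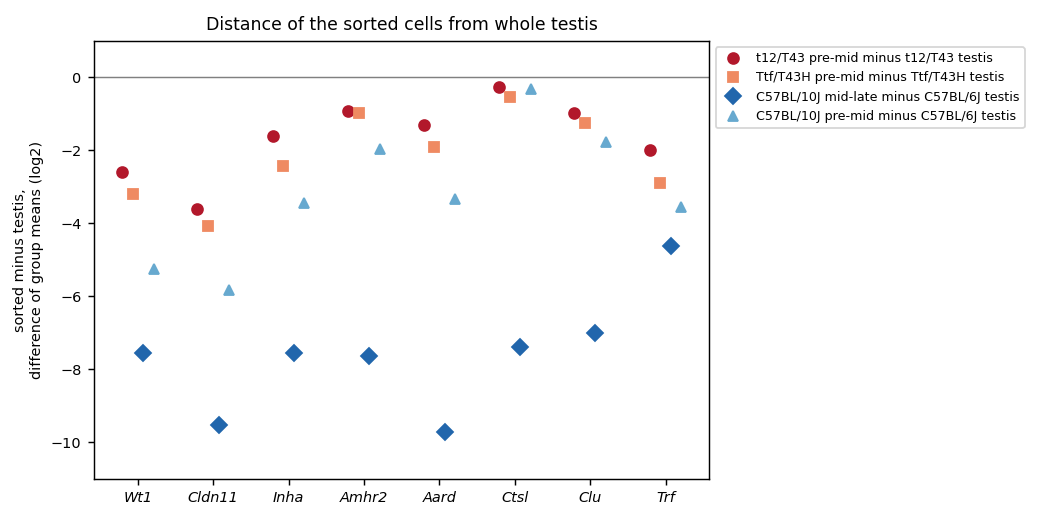
Difference of group means, sorted minus testis (vertical axis, log2), for each Sertoli cell gene; carriers are set against testes of their own line, and C57BL/10J sorts against C57BL/6J testes, another strain. Among pre-mid-pachytene groups Cldn11 lies farthest below 0 and Ctsl nearest to it, and the mid-late-pachytene diamonds lie lowest for every gene.

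The order of group means shared its main steps across members. All 3 testis groups stood above all 4 sorted groups, and mid-late-pachytene cells were last, for all 8 genes. Among pre-mid-pachytene groups, t12/T43 came first for all 8. Ttf/T43H came next and C57BL/10J after it for 6 members, and for Ctsl and Trf these 2 changed places. For Ctsl and Trf, all neighbours among the 3 pre-mid-pachytene groups overlapped. For Wt1, Cldn11, Amhr2, Aard and Clu, t12/T43 and Ttf/T43H overlapped, and Ttf/T43H and C57BL/10J did not.

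The other Sertoli markers were 30, with 25 on the array and 13 past the filter on low values in sorted cells. In t12/T43 against C57BL/10J pre-mid-pachytene cells, 4 of these 13 rose and 9 did not pass, where 3.24% of all genes rose. Shbg, Nr5a1 and Ocln were under 4 on every C57BL/10J array and entered the test through carrier arrays alone, so this count does not stand for the whole list. Gata1, a transcription factor of Sertoli and blood cells with its gene on the X, rose by 2.62 ± 0.37 (6.13-fold, adjusted p = 0.0038). It read 8.52, 8.74 and 9.45 in t12/T43 and 6.00 and 6.58 in C57BL/10J. The highest value was on t12/T43 replicate 3, whose mean X level lay apart, and a part of the X level in this change was not tested. Gja1, the connexin 43 gene, rose by 2.59 ± 0.46 (6.03-fold, adjusted p = 0.010), Shbg, the androgen-binding protein gene, by 3.44 ± 0.68 (adjusted p = 0.016), and Mro by 1.99 ± 0.48 (3.97-fold, adjusted p = 0.036). Shbg read 2.63 and 2.51 in the C57BL/10J sorts, so its change is measured against background. Against C57BL/10J, Ttf/T43H had 0 of these 13 called by limma, where 2.06% of all genes were called. An unadjusted p under 0.05 was found for 5 of the 13 and for 1731 of the 9666 genes tested. Shbg and Gata1 had changes of 2.86 ± 0.68 (adjusted p = 0.070) and 1.44 ± 0.37 (adjusted p = 0.087).

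In mid-late against pre-mid-pachytene C57BL/10J cells, 8 of the 13 fell and 5 did not pass, where 30.3% of all genes fell. The 5 were Sox9 (0.29), Ocln (0.23), Shbg (0.22), Nr5a1 (0.06) and Mro (0.01), and none of these changes was negative. Sox9 read 4.54 to 4.55 in mid-late cells and 4.20 to 4.30 in pre-mid cells. The cystatin gene Cst12 fell by 5.97 ± 0.66 (62.5-fold), and its relative Cst9 fell by 6.81 ± 0.64. Gja1 fell by 4.92 ± 0.50, and Inhbb, the inhibin beta B subunit gene, fell by 2.88 ± 0.37. Cst9 and Inhbb were under 4 on both mid-late arrays and Gja1 on 1 of them, so no fold is given for these. Against their own testes, 18 of 19 tested were lower in sorted cells in each carrier line, where 31.7% of all genes were in t12/T43 and 31.0% in Ttf/T43H, and the remaining one, the tight junction scaffold gene Tjp1, named after its values were seen, rose by 0.45 ± 0.16 in t12/T43 (adjusted p = 0.019), beside a median of 0.25 over all genes, and did not pass in Ttf/T43H. Of the 19 that reached 4 on every testis, 9 reached 4 on every pre-mid-pachytene array, among them Gata1, Inhbb, Cst9, Cst12 and Gja1. Another 5, Fshr, Dhh, Kitl, Gdnf and Sox8, were under 4 on every pre-mid-pachytene array and so passed the filter through the testes alone. They could only be lower in sorted cells, so the count of 18 of 19 does not stand for the whole list. Fshr encodes the receptor of follicle-stimulating hormone, and Dhh, Kitl and Gdnf encode signals to neighbouring cells. Kitl read 2.68 to 3.76 on these arrays against 7.06 to 7.45 on the testes, and Dhh 2.60 to 3.87 against 7.33 to 7.81.

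In testes, Shbg rose by 1.48 ± 0.12 in t12/T43 (2.78-fold, adjusted p = 0.00058) and by 1.24 ± 0.12 in Ttf/T43H (2.36-fold, adjusted p = 0.0020) against C57BL/6J. Cst9 fell by 0.51 ± 0.09 and 0.57 ± 0.09, and Mro by 0.48 ± 0.11 and 0.60 ± 0.11, in those lines. In all, 3 of 19 rose and 2 fell in t12/T43, where 10.5% and 11.3% of all genes did. In Ttf/T43H 1 rose and 2 fell, where 3.86% and 4.70% did. Between the carriers' testes 1 of 19 was called, where 4.99% of all genes were: Sox8, a SOX transcription factor gene on chromosome 17, rose by 0.84 ± 0.08 in t12/T43 (1.79-fold, adjusted p = 0.011).

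Genes outside the list were ranked by Pearson's r with the centred mean of the members over the 10 sorted arrays, as a description over arrays that share their stage and genotype groups. The 8 highest were Tmem184a (r = 0.999), Tmsb4x (r = 0.998), Inhbb, Mavs, Ldhb, Zdhhc20, Reep1 and Sparc, the last 6 between 0.995 and 0.996. Over the 8 pre-mid-pachytene arrays alone, which leave out the step between stages, r was 0.997 for Tmem184a and 0.984 for Tmsb4x. Tmem184a averaged 10.33, 9.56, 3.49 and 8.57 in t12/T43, Ttf/T43H, mid-late C57BL/10J and pre-mid C57BL/10J sorts. Among the members, r with the mean of the other 7 was highest for Aard (0.995) and lowest for Wt1 (0.929) and Trf (0.561). Without the mid-late arrays it was 0.596 for Ctsl and 0.407 for Trf, and 0.870 to 0.953 for the other 6.

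Markers of other cells also differed between the sorts, only in part in the order of the members, and their part in the results was not tested. The 5 Leydig markers on the array had means per array of 6.47 to 8.69 in t12/T43, 5.73 to 6.91 in Ttf/T43H, 2.93 to 3.57 in mid-late and 3.40 to 4.83 in pre-mid C57BL/10J cells, highest on t12/T43 replicate 3. Of the 4 tested, 1 rose in t12/T43 against C57BL/10J, where 3.24% of all genes did, and Cyp17a1, a steroid-making enzyme gene, averaged 11.05 in t12/T43, 9.97 in Ttf/T43H and 5.79 in C57BL/10J pre-mid cells. Among the sorted groups, the mean of the Leydig markers thus lay in the same order as that of the members. Unlike the members, it was not higher in every testis group than in the sorts. It averaged 6.74 in t12/T43 testes against 7.29 in t12/T43 sorts, and 7.04 in Ttf/T43H testes against 6.13 in Ttf/T43H sorts. The mean of the 10 macrophage and blood markers lay between 2.87 and 3.78 on the sorted arrays, where 1 to 3 of the 10 reached 4 on an array and Cd68 and Csf1r were under 4 on each. This mean averaged 2.99 in mid-late and 2.89 in pre-mid C57BL/10J cells, so it did not follow the members there. Of the 3 such markers tested in mid-late against pre-mid cells, 1 was called higher and 1 lower. In that comparison 5464 of the 9666 genes tested were called in either direction. Mrc1, the macrophage mannose receptor gene, averaged 8.25 in t12/T43, 7.71 in Ttf/T43H, 4.56 in mid-late and 7.07 in pre-mid C57BL/10J cells, which is the order of the members' mean. Lyz2, a lysozyme gene, averaged 4.67, 3.80, 3.43 and 3.01 in those groups.

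The mean of the 11 peritubular and endothelial markers lay between 3.94 and 4.73, with Pecam1 under 2.1 throughout. Acta2, smooth muscle actin, averaged 10.67, 10.84, 6.75 and 10.44 in t12/T43, Ttf/T43H, mid-late and pre-mid C57BL/10J cells. Another smooth muscle actin gene, Actg2, averaged 4.15, 6.68, 6.57 and 9.48 in those groups, and was thus lowest in t12/T43. Vwf, the gene of an endothelial clotting protein, averaged 6.45, 5.31, 6.05 and 5.38 and was highest in t12/T43.

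Germ cell markers moved as well. Spermatid markers had means per array of 5.27 to 7.54 in t12/T43, 10.08 to 10.60 in Ttf/T43H, 8.92 to 9.56 in mid-late C57BL/10J and 11.72 to 12.42 in pre-mid C57BL/10J cells. All 8 spermatid markers fell in t12/T43 against C57BL/10J pre-mid cells, where 5.83% of all genes fell, and 1 of 8 fell in Ttf/T43H, where 1.47% did. The groups with more Sertoli signal among pre-mid sorts were those with less spermatid signal, while mid-late cells were below pre-mid cells in both. Spermatogonia markers stood at 8.82 on Ttf/T43H replicate 2, against 6.56 to 7.73 on the other pre-mid arrays and 3.98 to 4.11 on the mid-late arrays. The 3′ over 5′ gap of Gapdh also differed between groups, at 3.44 to 3.98 in t12/T43, 3.26 to 3.91 in Ttf/T43H and 2.86 to 2.93 in C57BL/10J pre-mid cells, and 2.51 to 3.39 in mid-late cells.

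**Figure D4:**
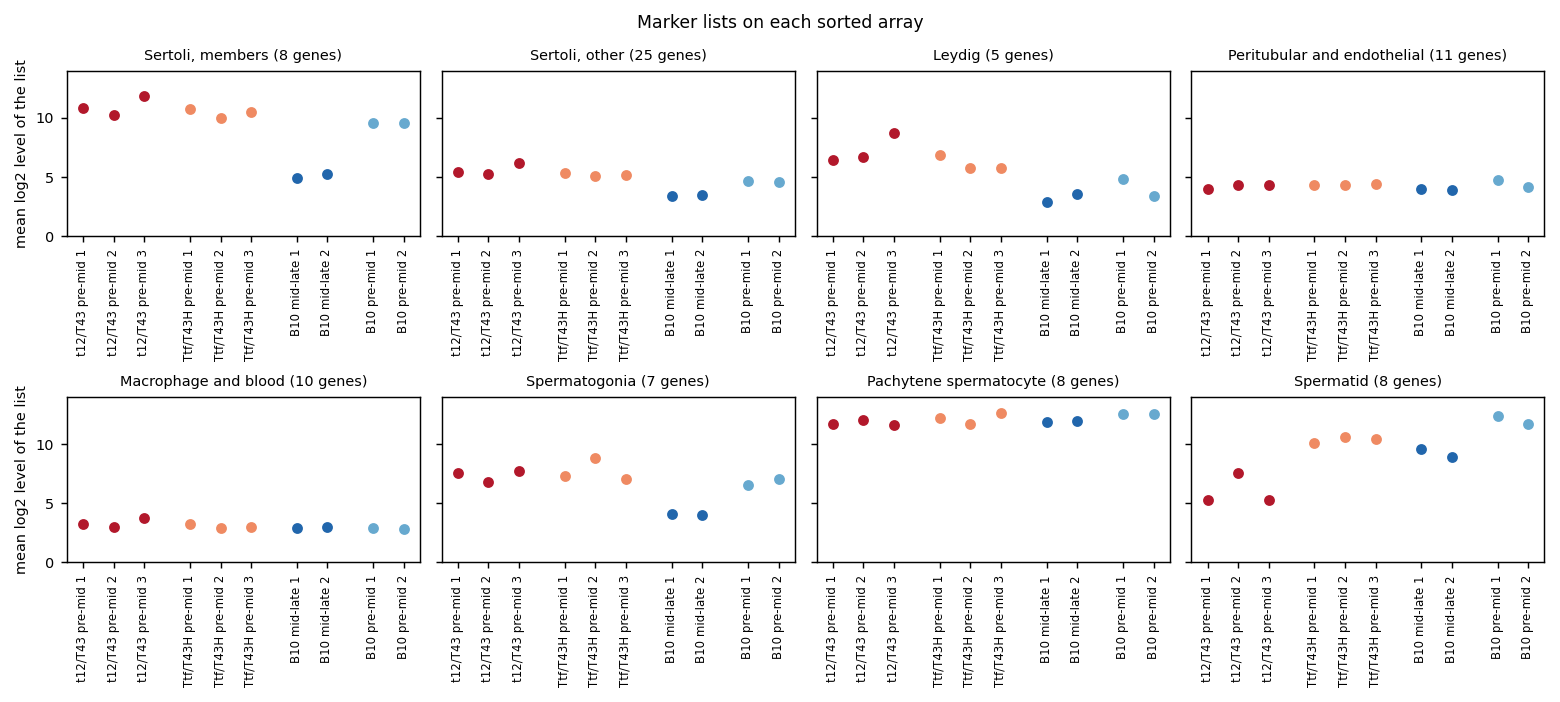
Mean log2 level (vertical axis) of each marker list on each of the 10 sorted arrays, 1 point for each array, coloured by group; the number of genes on the array is given with each list. The Sertoli and Leydig lists are lowest on the mid-late-pachytene arrays, Leydig apart from 1 C57BL/10J pre-mid array at 3.40, and the spermatid list is lowest in t12/T43.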

How the data were processed

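Gene expression was measured on 18 arrays: 10 of sorted spermatocytes and 8 of whole testes. The deposited log2 values come from GCRMA, per the submitters' processing notes; its version and the set of arrays normalized together are not given in the sources used here. Per the labels' protocols, each labelling began with 20 to 30 ng of RNA and used 2 amplification cycles. Of 16539 probe sets, 15780 carry 1 gene symbol, 0 several and 759 none; the unnamed ones were left out. The array files name no genome build. There is no read depth, so precision rests on how many arrays each group has.

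Groups and replicate numbers came from the sample titles. No further normalization was applied. Genes entered a test if 2 or more arrays in the fit reached a log2 value of 4. Sorted cells (9666 genes), testes (9134 genes) and all arrays together (10623 genes) were fitted with limma 3.58.1 in R 4.3.3 (lmFit with 1 mean per group, eBayes), and tests were two-sided. Adjusted p-values follow Benjamini and Hochberg over all genes of a comparison, and under 0.05 a gene is called, "rose" or "fell". Errors of changes are limma's standard errors (SE). The script was tested on simulated data. Both carrier groups were set against the same controls in each tissue.

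Results were recomputed without the filter, with a filter at log2 6, with quantile normalization, with arrays centred on their medians, a mean-variance trend, a replicate block, fits of only the groups compared, and each array or pairs of arrays left out. Named genes were the members, up to 4 other Sertoli markers with the smallest p in each comparison, up to 8 genes most correlated with the members' mean, and the first markers of other lists. Fshr, Dhh, Amh, Tjp1, Nr5a1, Ocln, Mrc1, Lyz2, Actg2 and Vwf were named for their levels or changes, after their values were seen. The members, lists and rules were chosen with earlier results of these data known.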

Additional observations from a re-analysis of the deposited data

Results flagged for a closer look

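Sox8, from the list of other Sertoli markers, was flagged because limma called its difference between t12/T43 and Ttf/T43H unequal in sorted cells and in testes. It passed the filter through the testes alone. The difference of the 2 differences was -0.75 ± 0.15 by limma (SE, adjusted p = 0.034), in a comparison where 0.734% of all genes were called. Sox8 read 10.05, 10.17 and 10.22 in t12/T43 testes and 9.22, 9.25 and 9.45 in Ttf/T43H testes. In the sorted cells it read 2.39, 2.55 and 2.37 in t12/T43 and 2.30, 2.36 and 2.37 in Ttf/T43H, all near background, so a difference there was not measurable. Its call in this comparison thus restates the difference between the testes and does not show whether the lines differ in sorted cells. None of the 8 members was called in that comparison.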

How the results depend on the processing

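Changes of members recomputed under the alternatives were counted, 804 in all. Where tested, all 8 members were counted among sorted cells and for each line's sorted cells against its testes. Only Wt1, Cldn11 and Trf were counted among testes, and only Inha for the difference between the lines' sorted-to-testis steps. Of the 804, 734 kept their direction and their side of the threshold, 35 lost a call, 20 gained one and 15 turned direction. Of the 393 that belong to called changes, 358 kept the call, 35 lost it and 0 turned direction. In t12/T43 against C57BL/10J sorted cells, where 4 members were called, 1 was called with no filter, 1 in a fit of only the groups compared, 1 with a replicate block and 0 to 6 with 1 array left out. In Ttf/T43H against C57BL/10J sorted cells, where 0 were called, 1 was in a fit of only those groups (Cldn11), 3 without Ttf/T43H replicate 2 and t12/T43 replicate 3, 4 without Ttf/T43H replicate 2 and t12/T43 replicate 2, a setting chosen after seeing the data, and 0 to 1 with 1 array left out. In testes, 1 array left out gave 0 to 1 calls in Ttf/T43H and 1 to 2 in t12/T43 against C57BL/6J. Against testes, t12/T43 sorted cells had 4 called with arrays centred on their medians, which moved the median change of all genes to 0.92 against 0.25 as deposited, and 6 to 8 with 1 array left out; in Ttf/T43H that median moved to 0.72 against 0.23, with Amhr2 (-0.49) no longer called. Centring moved it to 0.46 against -0.11 in mid-late against pre-mid cells. Calls over all genes behind the shares above ran between 13 and 411 with 1 array left out in t12/T43 against Ttf/T43H sorted cells (73 in all), between 0 and 368 in Ttf/T43H (199) and between 141 and 1391 in t12/T43 (877) against C57BL/10J, and between 9 and 900 in t12/T43 against Ttf/T43H testes (456); the replicate block gave 0, 18, 400 and 1703 in the same order.

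In sorted cells the replicate numbers did not pair t12/T43 with Ttf/T43H samples. Correlations of same-numbered deviations were 0.25, 0.02 and -0.347 there, against -0.274 to 0.191 for other numbers. In testes the same-numbered correlations were 0.492, 0.045 and 0.677, against -0.632 to 0.395 for other numbers. Testes may thus share structure by replicate number, which the main testis fits left out. With the replicate block, Inha was called in all testis comparisons. This gave 1 member in t12/T43 against Ttf/T43H, 2 in Ttf/T43H against C57BL/6J and 3 in t12/T43 against C57BL/6J. These Inha calls are outside the count of recomputed changes above. Among the changes counted, those that turned direction were all uncalled. In t12/T43 against C57BL/10J, the block turned Ctsl to -0.0798 and Trf to -0.21, and leaving out both arrays with a high X level turned Ctsl to -0.17; with 1 array left out these ranged between -0.17 and 0.38 and between -0.30 and 0.35. In t12/T43 against Ttf/T43H, leaving out those 2 arrays turned Amhr2 to -0.42, Clu to -0.19, Ctsl to -0.14, Cldn11 to -0.0346 and Wt1 to -0.0175, and with 1 array left out Amhr2 ranged between -0.35 and 0.58 and Clu between -0.11 and 0.75. Against testes, Ctsl in t12/T43 turned to 0.40 with centring and to 0.0061 without Ttf/T43H replicate 2 and t12/T43 replicate 2, and ranged between -0.54 and 0.0061 with 1 array left out. The cause of these moves was not tested. Values under a log2 of 4 carry little signal over background, which limits Trf in all sorts and Wt1 and Cldn11 in mid-late cells.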
